A study of Homo sapiens with 4 samples.

Results

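The 8 protein kinase C genes PRKCA, PRKCB, PRKCD, PRKCE, PRKCH, PRKCI, PRKCQ and PRKCZ were examined in THP1 cells after siRNA-mediated silencing of MLL-AF9. The members were all probes that carried one of these gene names, were no control spots and had a quality weight above 0 on all 4 arrays. This gave 9 probes on 18 spots, out of 26219 probes with 20654 gene names in the analyzed table. No protein kinase C spot was lost to the weight filter. PRKCB was measured by 2 probes, PRKCD by 1 probe printed on 10 spots, and each of the others by 1 probe on 1 spot. All comparisons are of log2 intensity.

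Protein kinase C enzymes are serine/threonine kinases that act downstream of receptors coupled to phospholipase C. The classical isoforms (PRKCA, PRKCB) respond to calcium and diacylglycerol, the calcium-independent isoforms (PRKCD, PRKCE, PRKCH, PRKCQ) to diacylglycerol without calcium, and the atypical isoforms (PRKCI, PRKCZ) to neither, being controlled through partner proteins. In monocytic cells, phorbol esters, which mimic diacylglycerol, drive differentiation toward macrophages through this family, and PRKCQ is best known from T cell receptor signaling.

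THP1 is an acute myeloid leukemia line of the M5 type with endogenous MLL-AF9, a fusion of the MLL and MLLT3 genes. All cells received siRNA on days 0, 3 and 6 and were harvested on day 8, in medium with 10% serum up to day 6 and with 0.5% serum thereafter. The knockdown group comprised siRNA-A and siRNA-B, and the control group control siRNA-1 and control siRNA-2, with 1 array per siRNA and a pool of 5 experiments on each array. The sample labels call the knockdown siRNAs siRNA3 and siRNA4, and these were taken, in that order, as siRNA-A and siRNA-B, an assumption that leaves the groups as they are. A difference is therefore one between 2 knockdown and 2 control arrays, each made with a different siRNA in the same line. All arrays lay on 1 slide with the knockdown arrays at the first positions, so that treatment and slide position cannot be told apart.

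The median log2 intensity of the arrays was 8.56 to 8.65, and 70.0% to 74.3% of spots were well above background, with the lower shares in the knockdown arrays. Silencing was not checked on the fusion transcript here, since probes were matched by gene name and the names matched were those of the partner genes. Of 6 probes for these, both MLLT3 probes were lower after knockdown, by a log2 difference of -0.76 and -0.63, and the 4 MLL probes differed by -0.41 to 0.05. The 6 monocytic markers (SPI1, CD33, FCER1G, TYROBP, CD68, ITGAM) were all well above background on every array, with mean log2 intensities of 8.09 to 15.13, and 0 of them were called different between groups, beside 1.35% of all gene names.

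The probe of PRKCE, the member called higher after knockdown, lies at chr2:46414736-46414795 of hg19. The probe of PRKCQ, the member called lower, lies at chr10:6470188-6470247 on the minus strand, and that of PRKCH, whose difference was not called, at chr14:62017283-62017342. The PRKCQ probe and the PRKCD probe (chr3:53226222-53226281) share an 18-letter stretch, and are shown whole for that reason. Capitals mark the stretch TTNTCCTTNNTGAACCCC, which encodes part of the hydrophobic motif, a phosphorylation site near the carboxyl terminus of these kinases. The stretch was chosen as an 18-base window with the most identical bases between any pair of member probes, with differing bases written as N. It starts at base 38 of the PRKCQ probe and base 17 of the PRKCD probe, with 15 identical bases. Of 34127 probes searched, on the strand of the probe, only the 2 it was taken from matched. That count is therefore no independent test of the stretch. For PRKCE, PRKCH and PRKCA the first 30 of 60 bases are given to identify the probes.
PRKCQ: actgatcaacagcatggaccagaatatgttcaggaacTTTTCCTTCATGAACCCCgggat
PRKCD: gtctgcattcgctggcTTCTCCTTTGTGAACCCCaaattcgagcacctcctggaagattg
PRKCE: caaagccaaaaaatatatgaaggatagctg
PRKCH: tgaatggtgtttgcattctgtgaaatgcct
PRKCA: aacctctaatctccgtttgcatgatacgct

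Of the 9 probes, 1 was called higher (PRKCE) and 1 lower (PRKCQ) at an unadjusted p under 0.005 in limma, the threshold of the study. Over all probes 1.32% were called, 0.584% higher and 0.732% lower. At an unadjusted p under 0.05 there were 4 of the 9 probes (PRKCA, PRKCE, PRKCH and PRKCQ), beside 8.06% of all probes in limma. None of the 9 probes had an adjusted p under 0.05, a level reached by 0.118% of all probes. Both called probes belonged to the calcium-independent class. The knockdown and control arrays did not overlap for 6 of the 9 probes, 4 higher and 2 lower, where 36.6% of all probes showed no overlap in either direction (15.2% above and 21.4% below). The median log2 difference was 0.03 for the 9 probes and -0.018 for all probes. All 9 probes were well above background on all 4 arrays.

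**Figure D1:**
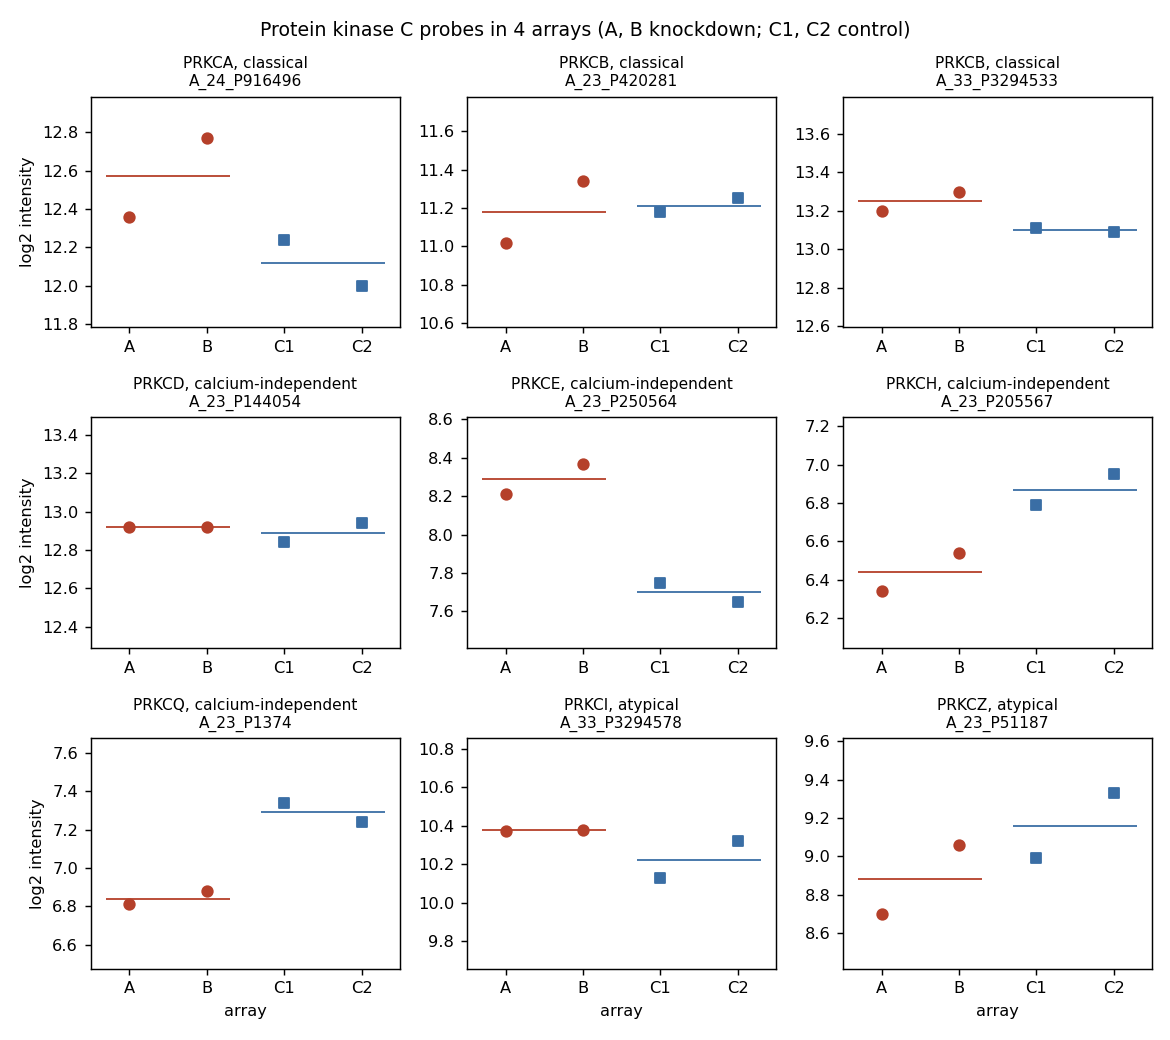
Log2 intensity (vertical axes, each spanning the same range) of the 9 protein kinase C probes in the siRNA-A (A), siRNA-B (B), control siRNA-1 (C1) and control siRNA-2 (C2) arrays (horizontal axes). Circles are knockdown arrays, squares control arrays and lines group means; PRKCE lay at 8.21 and 8.37 against 7.75 and 7.65, whereas PRKCQ lay at 6.81 and 6.88 against 7.34 and 7.24.

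PRKCE, a calcium-independent isoform studied as an oncogenic kinase in epithelial tumors, had a log2 intensity of 8.21 with siRNA-A and 8.37 with siRNA-B, against 7.75 with control siRNA-1 and 7.65 with control siRNA-2. Both knockdown arrays were above both control arrays. The means were 8.29 ± 0.11 and 7.70 ± 0.073 (SD, n = 2 each), a log2 difference of 0.59 (SE 0.12, 95% interval 0.32 to 0.85, 1.50-fold, unadjusted p = 0.000791, adjusted p = 0.196 in limma). Either siRNA gave a difference of this direction, 0.51 for siRNA-A and 0.66 for siRNA-B. The probe ranked 106 by p and 299 by size among all 26219 probes. On background-subtracted signal the difference was 0.51, or 0.54 after scaling, with an unadjusted p of 0.0176 and 0.0129 in limma, so that the call was lost, as it was with any 1 array left out.

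PRKCQ, the theta isoform, had a log2 intensity of 6.81 with siRNA-A and 6.88 with siRNA-B, against 7.34 and 7.24 with the control siRNAs. Both knockdown arrays were below both control arrays. The means were 6.84 ± 0.053 and 7.29 ± 0.069 (SD, n = 2 each). The log2 difference was -0.44 (SE 0.11, 95% interval -0.70 to -0.19, unadjusted p = 0.00359, adjusted p = 0.328 in limma), with -0.48 for siRNA-A and -0.40 for siRNA-B. This probe ranked 285 by p and 704 by size. The call was lost on unscaled background-subtracted signal (unadjusted p = 0.00508 in limma) and with any 1 array left out. Since PRKCQ is a T cell kinase, markers of lymphoid cells were examined: the brightest probes of the 6 T cell markers had mean log2 intensities of 5.65 to 6.88 and a median difference of 0.034. The 4 B cell markers had mean log2 intensities of 5.32 to 10.77 and a median difference of -0.03. In either list 0 genes were called, beside 1.35% of all gene names, and their part in the PRKCQ difference was not tested.

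PRKCH, the eta isoform, had a log2 intensity of 6.34 with siRNA-A and 6.54 with siRNA-B, against 6.79 and 6.95 with the control siRNAs. The groups did not overlap, with the knockdown arrays lower. The log2 difference of -0.43 (SE 0.12, 95% interval -0.72 to -0.15) was close to that of PRKCQ, but its unadjusted p of 0.0071 (adjusted p = 0.415 in limma) lay just outside the threshold that PRKCQ met. On background-subtracted signal the difference was -0.58, or -0.55 after scaling, for PRKCH and PRKCQ alike.

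PRKCD, a calcium-independent isoform linked to apoptosis and to the oxidative burst of phagocytes, had a mean log2 intensity of 12.92 in both knockdown arrays, against 12.84 with control siRNA-1 and 12.94 with control siRNA-2. The knockdown arrays lay between the control arrays. The log2 difference was 0.034 (95% interval -0.22 to 0.28, unadjusted p = 0.768, adjusted p = 0.971 in limma), so a change of up to 0.28 remains within the error. Its 10 identical spots differed between groups by -0.029 to 0.11, with 5 higher and 5 lower after knockdown. The spots varied within an array with an SD of 0.11 to 0.22, which was widest in the siRNA-B array. These spots are repeat readings of the same RNA and no replicates of the treatment.

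**Figure D2:**
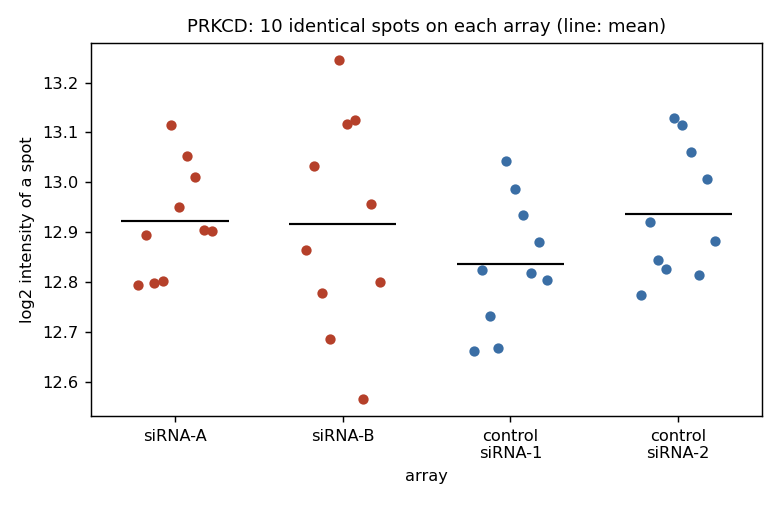
Log2 intensity (vertical axis) of the 10 identical PRKCD spots on each of the 4 arrays (horizontal axis); points are spots and lines their mean. The spots of every array overlap those of the others, and those of siRNA-B range most widely, from 12.57 to 13.25.

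Among the classical isoforms, PRKCA had a log2 intensity of 12.36 with siRNA-A and 12.77 with siRNA-B, against 12.24 and 12.00 with the control siRNAs. The knockdown arrays were higher without overlap, but the siRNA-A array exceeded the nearer control array by little. The log2 difference was 0.45 (SE 0.16, 95% interval 0.089 to 0.81, unadjusted p = 0.0201, adjusted p = 0.524 in limma), made up of 0.24 for siRNA-A and 0.65 for siRNA-B. The difference between the knockdown arrays (0.41) was thus nearly as large as that between the groups, and PRKCA was not called.

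The PRKCB probes differed in their agreement between siRNAs. Splice forms with different carboxyl termini arise from this gene, and by the accessions listed on the array one probe (A_23_P420281, chr16:24226173-24226233) matched 1 RefSeq transcript and the other (A_33_P3294533, chr16:24231495-24231554) both. The first had a log2 intensity of 11.02 with siRNA-A and 11.34 with siRNA-B, against 11.18 and 11.25 with the control siRNAs. Thus the knockdown arrays lay on opposite sides of the controls, and the log2 difference was -0.032 (95% interval -0.34 to 0.27, unadjusted p = 0.816, adjusted p = 0.98 in limma). The second had 13.20 and 13.30 in the knockdown arrays and 13.11 and 13.09 in the control arrays. Here both knockdown arrays were higher, by a log2 difference of 0.15 (95% interval -0.10 to 0.40, unadjusted p = 0.206, adjusted p = 0.798 in limma), and neither probe was called.

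Neither atypical isoform was called. PRKCI, a regulator of cell polarity, had a log2 intensity of 10.37 and 10.38 in the knockdown arrays and 10.13 and 10.32 in the control arrays. The knockdown arrays were higher without overlap, though close to control siRNA-2, and the log2 difference was 0.15 (95% interval -0.12 to 0.42, unadjusted p = 0.231, adjusted p = 0.811 in limma). A copy of PRKCI, PRKCIP1, is annotated as a pseudogene, and signal from its transcripts was not separated here. PRKCZ had a log2 intensity of 8.70 with siRNA-A and 9.06 with siRNA-B, against 8.99 and 9.33 with the control siRNAs. The groups overlapped, and the log2 difference of -0.28 (95% interval -0.65 to 0.081, unadjusted p = 0.111, adjusted p = 0.73 in limma) was not called. The arrays within a group differed by 0.36 (knockdown) and 0.34 (control), more than the groups did.

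**Figure D3:**
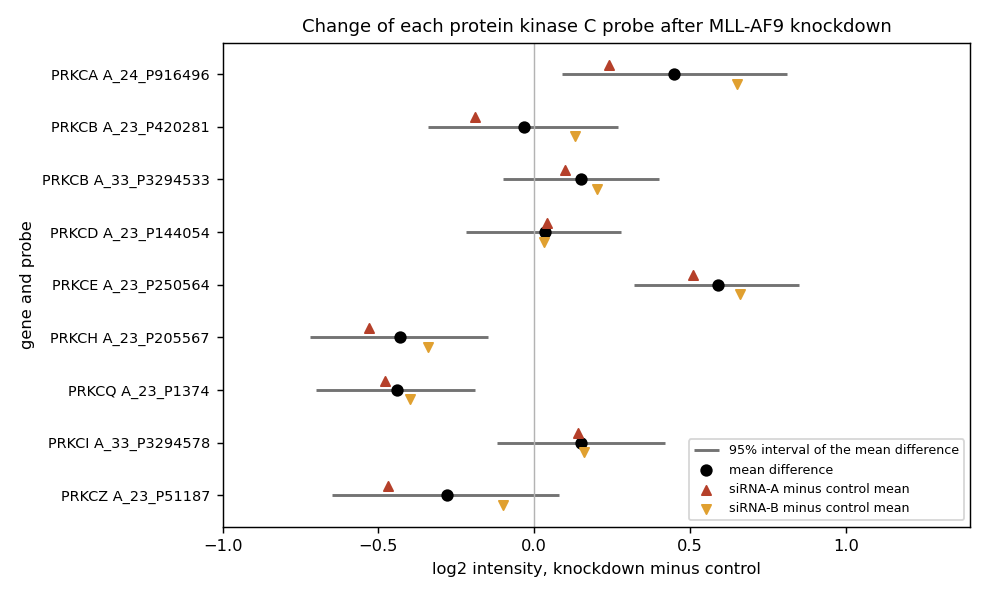
Log2 difference between knockdown and control (horizontal axis) for each probe (vertical axis); points are mean differences, bars 95% intervals from limma, and triangles the siRNA-A and siRNA-B arrays minus the control mean. The intervals of PRKCA, PRKCE, PRKCH and PRKCQ do not include 0, and the siRNAs fall on opposite sides of 0 for 1 PRKCB probe, at -0.19 and 0.13.

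The direction of the difference was the same in all 13 other settings for 7 of the 9 probes, the exceptions being A_23_P420281 of PRKCB and PRKCD. PRKCE ranged from 0.51 to 0.66 and was called in 7 settings, PRKCQ ranged from -0.58 to -0.35 and was called in 8, and PRKCH was called in none. PRKCA was 0.24 without siRNA-B and 0.65 without siRNA-A. PRKCZ was -0.47 when siRNA-B was omitted and -0.10 when siRNA-A was. With control siRNA-1 omitted it was -0.45, and with control siRNA-2 omitted -0.12. PRKCI was 0.054 without control siRNA-1 and 0.25 without control siRNA-2.

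**Figure D4:**
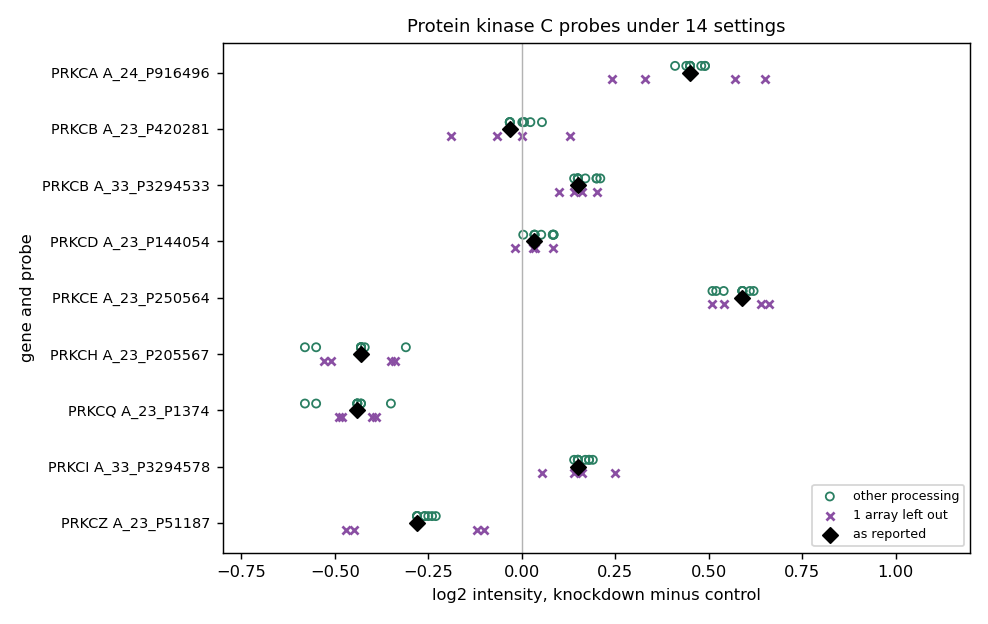
Log2 difference between knockdown and control (horizontal axis) for each probe (vertical axis) as reported (diamonds), under other processing (circles) and with 1 array left out (crosses). PRKCE stays between 0.51 and 0.66 and PRKCQ between -0.58 and -0.35, whereas the PRKCB probe A_23_P420281 falls on both sides of 0.

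The promoters of PRKCE, PRKCH and PRKCQ are shown because these genes gave the lowest p of the members and in opposite directions. All 8 members were matched in RefSeq (GRCh38.p14), and the 250 bases before the annotated start are printed, at chr2:45651425-45651674 on the plus strand, chr14:61321329-61321578 on the plus strand and chr10:6580647-6580896 on the minus strand. Capitals mark matches, on either strand, to GGGCGG (SP1), GAGGAA (PU.1) and CCAAT, with CCGCCC and TTCCTC being the reverse complements.
PRKCE promoter: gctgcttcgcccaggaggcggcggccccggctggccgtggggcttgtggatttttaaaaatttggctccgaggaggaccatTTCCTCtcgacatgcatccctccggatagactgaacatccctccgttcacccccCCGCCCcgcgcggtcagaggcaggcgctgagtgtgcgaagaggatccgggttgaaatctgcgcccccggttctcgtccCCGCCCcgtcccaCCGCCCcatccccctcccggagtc
PRKCH promoter: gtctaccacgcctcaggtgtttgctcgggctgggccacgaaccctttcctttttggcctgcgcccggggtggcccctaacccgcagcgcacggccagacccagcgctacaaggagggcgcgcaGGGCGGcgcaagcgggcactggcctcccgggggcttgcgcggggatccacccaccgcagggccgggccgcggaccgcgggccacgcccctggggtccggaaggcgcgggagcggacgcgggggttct
PRKCQ promoter: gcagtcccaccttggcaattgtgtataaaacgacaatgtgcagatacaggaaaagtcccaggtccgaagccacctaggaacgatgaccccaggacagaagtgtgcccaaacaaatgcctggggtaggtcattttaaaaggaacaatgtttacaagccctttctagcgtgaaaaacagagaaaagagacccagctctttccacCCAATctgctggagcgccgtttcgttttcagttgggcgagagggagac

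The PRKCE and PRKCH windows had a GC content of 66.4% and 75.2% with 3 and 1 matches to GGGCGG, whereas the PRKCQ window had 49.2% and none. PRKCE held the only GAGGAA match and PRKCQ a CCAAT match. In windows of 300 bases, GGGCGG occurred in 10 of 13 starts of the members and in 45% of 35116 promoters. GAGGAA occurred in 27.9% of promoters and in 1 member start, and CCAAT in 34.6% and in 2 member starts. The AP-1 letters TGANTCA (7.71%) and the E-box CACGTG (7.26%) occurred in no member start, and the CRE letters TGACGTCA (1.85%) in 1, of PRKCZ. These matches describe letters in the windows, and binding was not measured.

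The genes around protein kinase C were then examined by their brightest probe. Of 75 genes in 8 lists, 27 were higher and 48 lower, beside 9161 higher and 11492 lower of all 20654 gene names. The median log2 difference was -0.032 against -0.019 for all gene names, and 1 of the 75 genes was called, in the lower direction. Of all gene names 1.35% were called, 0.596% higher and 0.755% lower. The called gene was PRKD3, a protein kinase D that is activated by protein kinase C. It had 9.11 and 8.95 in the knockdown arrays and 9.44 and 9.54 in the control arrays, a log2 difference of -0.46 (SE 0.12, unadjusted p = 0.00354, adjusted p = 0.327 in limma). Both knockdown arrays were below both control arrays. The call was lost on background-subtracted signal (-0.51, or -0.48 after scaling), after quantile (-0.43), cyclic loess (-0.43) or normexp processing (-0.41), and with any 1 array left out (-0.54 to -0.39), while the difference stayed of similar size. None of the other kinases in this list of 6 was called.

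For enzymes that form diacylglycerol, 4 of 12 were higher, 8 lower and 0 called, with a median log2 difference of -0.094. The largest difference was that of the phospholipase C PLCD4, at -0.25 (unadjusted p = 0.163, adjusted p = 0.77 in limma), which rested on control siRNA-2 (6.23, against 5.71 to 5.73 in the other arrays). For enzymes that remove diacylglycerol, 3 of 7 were higher and 0 called, the largest difference being 0.25 for the diacylglycerol kinase DGKA (unadjusted p = 0.0878, adjusted p = 0.702 in limma). Among the 8 other diacylglycerol receptors 0 were called, and the synaptic priming factor UNC13B differed by -0.24 (unadjusted p = 0.0631, adjusted p = 0.659 in limma), while its other probe differed by 0.00.

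Of 11 genes for maturation and dephosphorylation of the kinases 2 were higher, 9 lower and 0 called, with PHLPP1, a phosphatase of the hydrophobic motif, at -0.21 (unadjusted p = 0.118, adjusted p = 0.736 in limma). Of 11 anchors and partners 0 were called, with PRKCDBP, a PRKCD-binding protein of caveolae, at 0.30 (unadjusted p = 0.0337, adjusted p = 0.591 in limma). Of 15 substrates 7 were higher, 8 lower and 0 called. PPP1R14A, a phosphatase inhibitor that protein kinase C activates, had 11.16 with siRNA-A and 10.11 with siRNA-B, against 11.62 and 11.15 with the control siRNAs. Its difference of -0.75 (unadjusted p = 0.0352, adjusted p = 0.596 in limma) came largely from siRNA-B, and the groups overlapped.

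The paired substrates MARCKS and MARCKSL1, named after their values were seen, differed in opposite directions. MARCKS had 10.01 and 9.80 in the knockdown arrays against 9.55 and 9.40 in the control arrays, a log2 difference of 0.43 (unadjusted p = 0.00818, adjusted p = 0.426 in limma). MARCKSL1 had 8.02 and 8.42 against 8.60 and 8.86, a log2 difference of -0.51 (unadjusted p = 0.011, adjusted p = 0.464 in limma). Neither was called. In the CARD-BCL10-MALT1 list, which carries the signal from protein kinase C to NF-kappaB, 0 of 5 genes were higher, 5 were lower and 0 called, with a median of -0.14 and CARD10 at -0.33 (unadjusted p = 0.0187, adjusted p = 0.52 in limma).

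**Figure D5:**
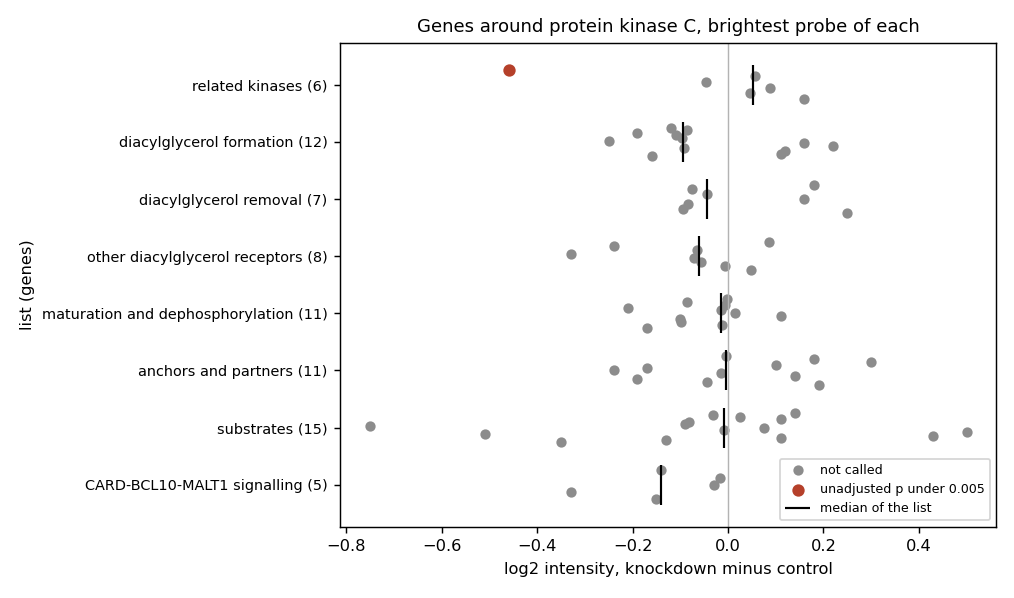
Log2 difference between knockdown and control (horizontal axis) of the brightest probe of each gene in 8 lists (vertical axis, number of genes in parentheses); points are genes and vertical lines list medians. The list medians lie between -0.14 and 0.052, and PRKD3 at -0.46 is the gene called.

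The probes whose pattern over the 4 arrays was most like that of PRKCE, by the root mean square difference of centered log2 values among 19538 probes, were those of the apoptosis inhibitor NAIP (0.0412), HLA-DQB2 (0.0445) and the interleukin 10 receptor chain IL10RA (0.0451). Their log2 differences between groups were 0.59, 0.67 and 0.53. The probes most like PRKCQ were those of TCHH (0.0246), PEG3 (0.0255) and the histone gene HIST3H3 (0.0296), with log2 differences of -0.41, -0.39 and -0.40. With 4 arrays such likeness is a description and was not tested.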

How the data were processed

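Gene expression in THP1 cells was measured on 4 single-colour Agilent arrays of 1 slide. The authors extracted spots with Agilent Feature Extraction 10.5.1.1, per the submitters' processing notes, and deposited for every spot an intensity and a quality weight, a score whose origin is not stated. In 100% of spots this intensity was the median of the pixels, and it was deposited without background correction or normalization between arrays. Further deposited columns are scanner signals and flags.

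Of 44495 spots, 1377 control spots and spots with a weight of 0 were left out. Log2 intensities of identical spots were averaged and fitted in R 4.3.3 by limma 3.58.1, weighted as deposited, 2 knockdown against 2 control arrays without covariates, and p were adjusted over all 26219 probes by Benjamini-Hochberg. All p are two-sided. The call at an unadjusted p under 0.005 follows the study, whose further test over identical spots was not used. An exact permutation test of 2 against 2 arrays cannot go below p = 0.333. Each array is a pool, so that p measure the spread between arrays only, and their number limits the precision. In simulated data of this design on 26219 probes, 100% of probes changed by 1 and 78% of those changed by 0.5 (log2) were called, as were 0.646% of unchanged ones.

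Named genes are every member probe, each pathway gene whose brightest probe was called, and for a list without one the gene with the largest difference well above background on all arrays, plus the 3 probes most like each called member. MARCKS and MARCKSL1 were named outside this rule, after their values were seen. Members and lists were chosen with earlier results of these data known. Alternatives were background-subtracted signal, unscaled or scaled to the 75th percentile, quantile and cyclic loess normalization, normexp with an offset of 50, no weights, only probes well above background, an intensity trend, single spots, an adjusted threshold and each array left out. Probe positions and names are those of the scanner tables (hg19). An exon annotation of that build was not used here.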

Additional observations from a re-analysis of the deposited data

Results flagged for a closer look

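The PRKCB probe A_23_P420281 was 0.32 higher on the log2 scale with siRNA-B than with siRNA-A, which lay above and below both control arrays. This difference between the siRNAs was not tested. The same pattern occurred in 18% of all 26219 probes and in 1 of the 9 protein kinase C probes (11.1%).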

How the results depend on the processing

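The 2 protein kinase C calls became 0 on unscaled and 1 on scaled background-subtracted signal, and 0 at an adjusted p under 0.05. Over all probes, 1.32% were called as reported, 1.05% on unscaled and 0.862% on scaled background-subtracted signal, and 1.16% to 1.38% after normalization. At an adjusted p under 0.05 the share was 0.118%. Neither call was kept with any array left out, where 1 group holds a single array. Such fits called fewer probes over the whole table as well. The 1 pathway call (PRKD3), with differences of -0.54 to -0.39 over all settings, became 0 on background-subtracted signal, scaled or not, after quantile normalization, cyclic loess or normexp, at an adjusted p under 0.05 and with any array left out. With 1 array left out, PRKCE ranged from 0.51 to 0.66 (unadjusted p = 0.00537 to 0.021 in limma) and PRKCQ from -0.49 to -0.39 (unadjusted p = 0.0138 to 0.0409 in limma), the lone array being assumed to vary like the others. With 1 array left out, the PRKCB probe A_23_P420281 ranged from -0.19 to 0.13 and PRKCD from -0.017 to 0.084. The PRKCB probe turned to 0.023 on unscaled and 0.054 on scaled background-subtracted signal, 0.0059 after quantile normalization, 0.0014 after cyclic loess, 0.0058 after normexp, 0.13 without siRNA-A and 0.0014 without control siRNA-2, and PRKCD to -0.017 without control siRNA-1. The cause was not tested. No probe of the whole table had an adjusted p under 0.05 on background-subtracted signal, after normalization or with an array left out, where 795 to 2527 had an unadjusted p under 0.05 in limma. No paired analysis was possible, since each array holds a pool of 5 experiments made with a different siRNA.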
